A study of Homo sapiens with 58 samples.

Results

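The last 3 time points of a presomitic mesoderm time course were set against a somite culture of the same human cell line, over all genes of the deposited expected count table. The 6 course-end libraries are those labelled 630, 660 and 690 min, with replicates 1 and 2 of each, and the 3 Day3 libraries carry the cell type label somite. They were picked out by label, with earlier results of these data known, and are 9 of the 58 libraries of the series. The series holds a course of 46 libraries at 23 time points and a daily series of 12 libraries. All come from wild-type cells of H1, a line of human embryonic stem cells, so 1 genotype and 1 line stand behind every value. The tables give expected counts for 19084 genes, and levels are given as CPM, a gene's counts scaled by the total of its library.

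Day3 cultures had received 100 ng/mL activin A with 3 µM CHIR99021, an activator of Wnt signalling, for 24 h. They then had 24 h in presomitic medium with 3 µM CHIR99021, 100 ng/mL FGF2, 2 µM A83-01 (an inhibitor of activin and nodal receptors) and 100 ng/mL NOGGIN (a BMP antagonist), which is the Day2 state. The somite medium that followed held 1 µM PD0325901, an inhibitor of MEK, 2.5 µM IWR1, an inhibitor of Wnt signalling, 2 µM A83-01 and 100 ng/mL NOGGIN. For the course, the labels give the minutes and the cell type presomitic mesoderm time course, but neither the medium during the course nor its zero point. The course and the daily series are separate experiments and coincide with the groups, so a difference between experiments and a difference between states cannot be told apart in the direct comparison. Whether the replicates of a group were grown apart is not stated in the labels, and every p-value here measures library-to-library spread that may be technical. The 3 time points of course end were treated as 1 group, so change between them is also in the spread of its 6 libraries.

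Presomitic mesoderm is the unsegmented tissue beside the neural tube of the vertebrate embryo, held immature by Wnt and FGF signals and paced by a Notch-driven oscillator. At its anterior end, cells lose those signals, switch on the MESP2 and RIPPLY genes, form a segment border and become somites. Somites express TCF15, MEOX1 and PAX3 and later give rise to sclerotome, muscle and dermis.

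Totals were 2.84 to 8.96 M expected counts in the course-end libraries and 4.52 to 7.81 M in the Day3 libraries. Across the tested genes on log2 CPM, libraries correlated at r 0.920 to 0.955 among course end, at 0.918 to 0.929 among Day3, and at 0.853 to 0.919 between the groups. Day3 replicate 3 was closest to course end (0.891 to 0.919) and Day3 replicate 2 farthest (0.853 to 0.871). The first principal component separated the groups and held 37.4% of the variance. The 630 min replicate 1 library stood apart on the second component, which held 12.8%. In these bulk samples, fewer cells of a type and less RNA per cell cannot be told apart.

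Of 12070 genes tested, 536 were higher and 524 lower at course end than on Day3, by edgeR's quasi-likelihood test at an adjusted p under 0.05 with a log2 fold change of at least 1. That is 8.78% of the genes tested, 4.44% higher and 4.34% lower, around a median log2 fold change of -0.01. Counts of calls in the gene lists below are to be read beside these shares. The 6 course-end libraries did not overlap the 3 Day3 libraries in CPM for 20.4% of the genes tested. Without the 630 min replicate 1 library, 1032 genes were called in place of 1060. Without Day3 replicate 2 there were 774, and without Day3 replicate 3 there were 1320.

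**Figure D1:**
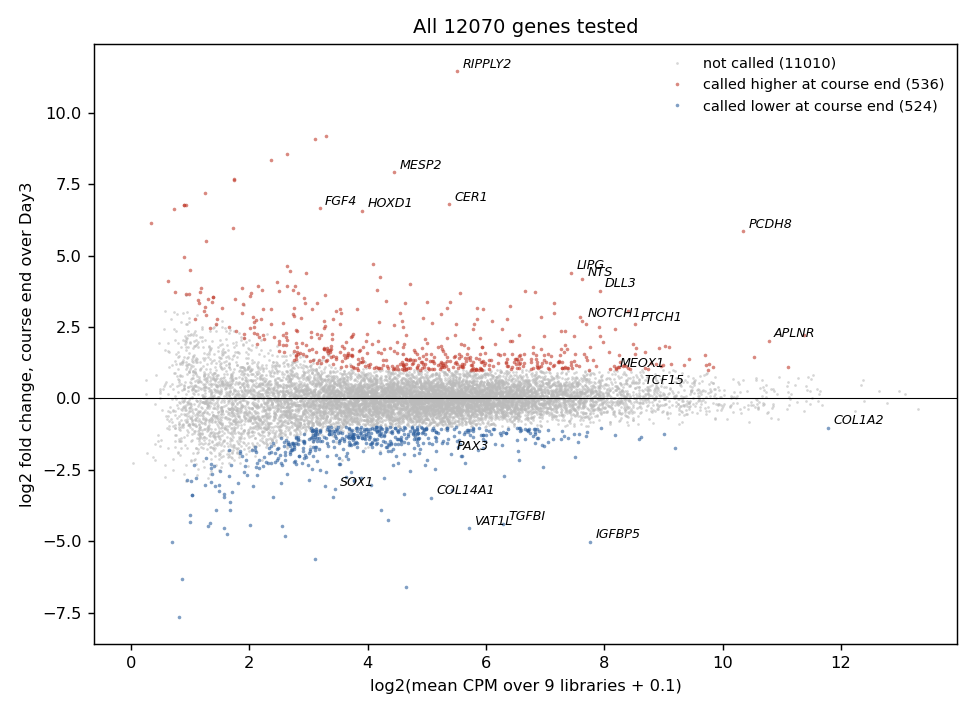
Each point is 1 of the 12070 genes tested, with log2 mean CPM over the 9 libraries across and the fitted log2 fold change of course end over Day3 up the page. The 536 genes called higher are red and the 524 called lower blue. RIPPLY2, MESP2 and CER1 are the highest labelled points, PCDH8 stands out at high level, and IGFBP5 lies lowest among the labelled points. For RIPPLY2, whose Day3 libraries held 0 counts, the fitted fold depends on the prior count.

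Among 43 gene lists, the segment border genes had the highest share of calls. Of 12 in the table, 10 passed the filter on low counts, and 9 of these were called higher at course end and 0 lower (edgeR; the members at an unadjusted p under 0.05 were 10 higher and 0 lower, and DESeq2 called 9 higher and 0 lower). Their median log2 fold change was 3.28, against -0.01 over all genes tested. PCDH8, CER1 and MESP2 were set as markers of this comparison in advance. The lists were chosen with earlier results of these data known, so the rank of this list is a description and not a test. PCDH8, a protocadherin that marks forming segment borders in the mouse, gave 1607 to 2153 CPM (median 1962) in the course-end libraries, against 19, 52.4 and 32.7 CPM in the Day3 libraries. Every course-end library was far above every Day3 library, at a log2 fold change of 5.86 ± 0.28 (SE) and an adjusted p of 1.06e-10. CER1, a secreted antagonist of nodal, BMP and Wnt ligands, gave 49.3 to 69.6 CPM (median 64.1) at course end, against 0.190, 0.221 and 1.02 CPM on Day3 (log2 fold change 6.80 ± 0.37). MESP2, the bHLH factor that sets the segment border in the mouse, gave 24.0 to 39.8 CPM (median 33.5) at course end, against 0.380, 0 and 0 CPM on Day3. Those Day3 values rest on 2 counts, and the ratio of pooled counts was 274 with an exact 95% counting interval of 75.7 to 2267. RIPPLY2, which in the mouse restricts Mesp2 by acting on Tbx6, gave 48.9 to 83.7 CPM (median 69.6) at course end and had 0 counts in all 3 Day3 libraries. With 3 counts allowed over the Day3 group, RIPPLY2 was at least 392-fold higher at course end (adjusted p = 3.51e-10). On the authors' length-scaled values these 4 genes averaged 1136 ± 129.5 (PCDH8), 230.4 ± 41.7 (RIPPLY2), 113 ± 14.3 (CER1) and 44.4 ± 8.0 TPM (MESP2) at course end (SD, n = 6), against 20.7 ± 10.5, 0, 0.910 ± 0.927 and 0.170 ± 0.294 TPM in the same order on Day3 (SD, n = 3).

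RIPPLY1, a second RIPPLY repressor, gave 293 to 378 CPM (median 326) at course end, against 26.8, 77.7 and 121 CPM on Day3. It was detected in both groups and still did not overlap (log2 fold change 2.18 ± 0.30). EFNB2, an ephrin ligand on the cells that meet at a border, was 2.57-fold higher, at 262 ± 31.6 CPM at course end against 106 ± 8.96 CPM on Day3 (SD, n = 6 and 3). SNAI2, a repressor tied to epithelial to mesenchymal transition, was 2.95-fold higher, with Day3 libraries spread over 260.1, 92.5 and 143 CPM. EPHA4, an Eph receptor, had a log2 fold change of 0.54 ± 0.19 and was not called. MESP1, the paralogue of MESP2, did not pass the filter: it had 45 counts over the 6 course-end libraries and 0 over the 3 Day3 libraries. Each of the 9 fits that left out 1 library again called 9 genes of this list.

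The 250 bases before the RefSeq start of the genes that were nearly silent on Day3 were read from RefSeq (GRCh38.p14), since these genes stood together above Day3. Each is written 5′ to 3′ on the gene's strand. Capitals mark the T-box core AGGTGT, which Tbx6 and related factors bind, and TGGGAA, a core bound by the Notch effector RBPJ, both searched on both strands.
MESP2, chr15:89776082-89776331, plus strand: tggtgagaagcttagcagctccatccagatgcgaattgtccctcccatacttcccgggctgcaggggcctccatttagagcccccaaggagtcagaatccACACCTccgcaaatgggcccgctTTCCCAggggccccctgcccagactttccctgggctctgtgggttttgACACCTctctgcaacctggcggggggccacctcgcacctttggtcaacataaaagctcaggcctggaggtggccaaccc
RIPPLY2, chr6:83853110-83853359, plus strand: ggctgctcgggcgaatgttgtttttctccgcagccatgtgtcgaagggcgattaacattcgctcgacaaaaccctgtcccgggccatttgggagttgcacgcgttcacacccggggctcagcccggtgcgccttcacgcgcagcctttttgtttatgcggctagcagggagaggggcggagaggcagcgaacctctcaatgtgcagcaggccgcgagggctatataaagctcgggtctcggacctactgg
CER1, chr9:14722734-14722983, minus strand: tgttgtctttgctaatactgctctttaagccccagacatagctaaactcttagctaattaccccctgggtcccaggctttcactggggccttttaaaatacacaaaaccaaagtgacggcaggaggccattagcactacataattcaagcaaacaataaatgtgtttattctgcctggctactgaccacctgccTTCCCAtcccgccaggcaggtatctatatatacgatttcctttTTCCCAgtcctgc
MESP2 held 2 matches to the T-box core and 1 to the RBPJ core, CER1 held 2 to the RBPJ core, and RIPPLY2 held neither. PCDH8, read in the same way, held neither. Among 35116 promoter windows of 250 bases, 9.57% held the T-box core and 20.8% the RBPJ core. The E-box CANNTG, the kind of site bHLH factors bind, is not marked: it had 2 matches in MESP2, 2 in RIPPLY2, 1 in CER1 and 0 in PCDH8, and 61.8% of windows held it. The T-box and RBPJ cores do not overlap each other here. A match is a description of letters, not a site.

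**Figure D2:**
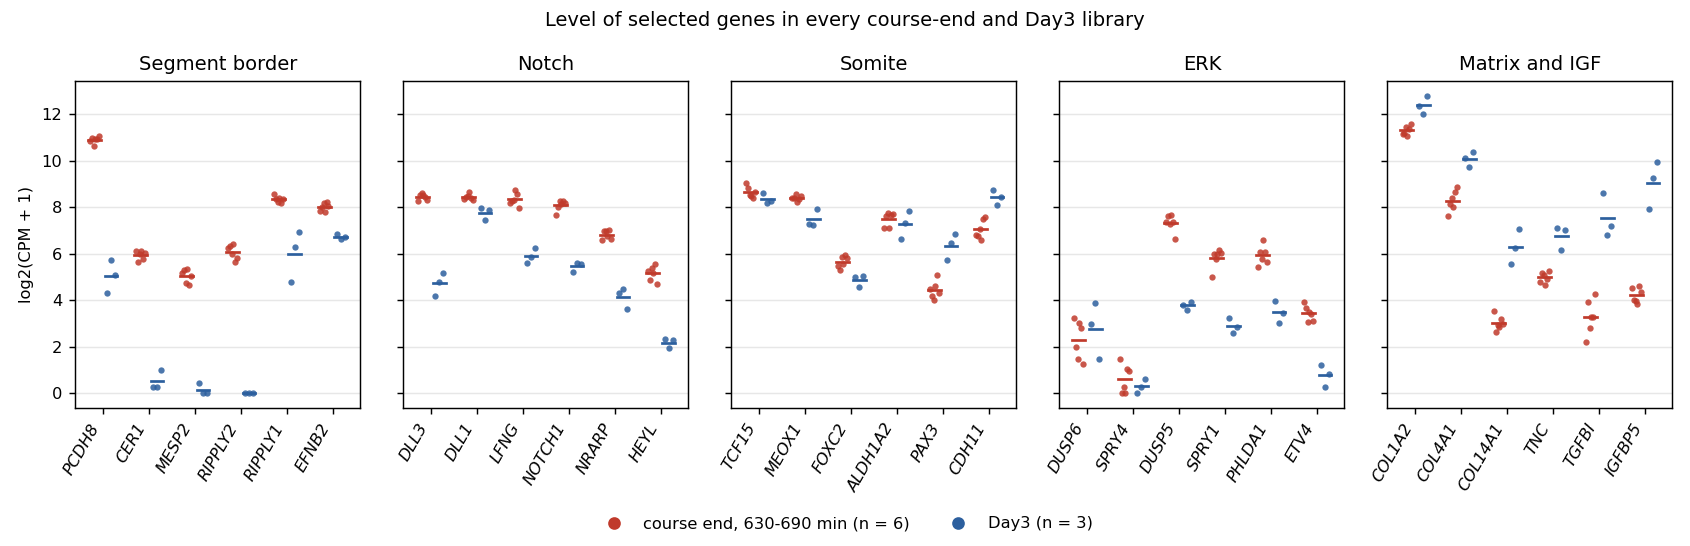
Level of 30 genes in every library, as log2(CPM + 1), in 5 groups. Course-end libraries (red, n = 6) stand left of Day3 libraries (blue, n = 3), and bars are means on that scale. PCDH8, CER1, MESP2 and RIPPLY2 show the widest gaps. TCF15, ALDH1A2, DUSP6 and SPRY4 overlap between the groups, and COL4A1, COL14A1, TNC, TGFBI and IGFBP5 are lower at course end in every library.

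Of the genes of immature presomitic mesoderm, the table holds 19; 15 were tested, 10 were called higher and 0 lower (edgeR; the unadjusted p was under 0.05 for 14 higher and 0 lower, and DESeq2 called 11 higher and 0 lower), with a median log2 fold change of 2.80. T, or brachyury, the T-box factor of the primitive streak and tailbud, gave 3.00 to 7.90 CPM (median 5.88) at course end, against 0.949, 1.11 and 0.384 CPM on Day3 (log2 fold change 2.86 ± 0.70, adjusted p = 0.00704). TBX6, the T-box factor that commits cells to paraxial mesoderm, gave 2.07 to 19.7 CPM (median 13) at course end, against 1.14, 0.221 and 0.256 CPM on Day3. The groups did not overlap for either gene, but both were at under 20 CPM. RSPO3, a secreted enhancer of Wnt signalling, was 6.95-fold higher, at 80.3 ± 13.3 CPM at course end against 12.1 ± 4.87 CPM on Day3 (SD, n = 6 and 3). The other calls were DLL3, LFNG, WNT3A, WNT5A, FGF17, CDX1 and CDX2. HES7, the transcriptional repressor at the core of the segmentation clock, gave 1.39 to 3.70 CPM (median 2.64) at course end, against 0, 1.77 and 0 CPM on Day3. It was not called (log2 fold change 2.31 ± 1.10, adjusted p = 0.149), though it was without Day3 replicate 2, in the fit of all 58 libraries and with limma on log2(TPM + 1) or log2(TPM + 0.1). MSGN1, a factor of the posterior presomitic mesoderm, did not pass the filter, with 58 counts over course end and 5 over Day3. With the 630, 660 or 690 min libraries alone against Day3, 6, 5 and 5 of these genes were called. Without Day3 replicate 2, 10 were called higher and 1 lower.

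In the Notch pathway, ligands, receptor and feedback genes differed in both directions: 7 of 19 tested were called higher and 2 lower, with a median log2 fold change of 0.70. DLL3, a Notch ligand that acts inside the cell, gave 308 to 397 CPM (median 356) at course end, against 17.5, 26.6 and 35.6 CPM on Day3 (log2 fold change 3.77 ± 0.20, adjusted p = 2.88e-10). The lowest course-end library lay far above the highest Day3 library. DLL1, the ligand that activates Notch in presomitic mesoderm, had a log2 fold change of 0.73 ± 0.14 and stayed under the size limit. JAG1, another ligand, was 3.52-fold higher. NOTCH1, the receptor, gave 200.2 to 311 CPM (median 289) at course end, against 36.3, 48.0 and 45.7 CPM on Day3, without overlap (6.56-fold). LFNG, a glycosyltransferase that modifies Notch and cycles with the clock, gave 248 to 429.6 CPM (median 313) at course end, against 47.8, 57.5 and 74.9 CPM on Day3. NRARP, a feedback inhibitor of Notch signalling, was 6.89-fold higher, at 114 ± 15.9 CPM at course end against 17.2 ± 5.09 CPM on Day3 (SD, n = 6 and 3). HEYL, a transcriptional target of Notch, was 10.2-fold higher. HEY1, a related target, was called higher, with Day3 libraries at 154, 20.4 and 26.1 CPM, of which replicate 1 was close to the lowest course-end value of 164 CPM. JAG2 and NOTCH3 were called lower, and the NOTCH3 call ended without Day3 replicate 2. HES1 had a log2 fold change of -0.63 ± 0.46 and was not called.

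Somite genes differed in both directions: 3 of 13 tested were called higher and 4 lower, with a median log2 fold change of 0.25. That is 53.8% called, against 8.78% of all genes tested. The groups did not overlap for 9 of the 13, against 20.4% of all genes tested. The higher calls were FOXC1, FGF18 and LFNG, and LFNG is also a presomitic and a Notch call. The lower calls were MEOX2, PAX3, CDH11 and FST, with values in the next paragraph. TCF15, or paraxis, which keeps somites epithelial in the mouse, gave 335 to 531 CPM (median 391) at course end, against 395, 287 and 304 CPM on Day3. The groups overlapped (log2 fold change 0.38 ± 0.18, adjusted p = 0.131). MEOX1, a homeobox factor of early somites, gave 304 to 381 CPM (median 338) at course end, against 154, 152 and 239.9 CPM on Day3. These did not overlap, and with a log2 fold change of 0.97 ± 0.16 (adjusted p = 2.19e-04) MEOX1 lay just under the size limit, which it passed without Day3 replicate 3, without 660 min replicate 2 or without 690 min replicate 1. FOXC1 and FOXC2, forkhead factors needed for somite formation in the mouse, had log2 fold changes of 1.05 ± 0.15 (called) and 0.87 ± 0.20 (not called). ALDH1A2, the enzyme that makes retinoic acid in somites, had 137 to 215 CPM (median 201) at course end, against 98.9, 159.5 and 228 CPM on Day3, and was not called. FGF18, a ligand, gave 29.5 to 45.1 CPM (median 38.9) at course end, against 3.23, 0 and 3.71 CPM on Day3, and was called higher.

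Among genes of later somite derivatives, 2 of 8 tested for dermomyotome and muscle were called lower and 0 higher (edgeR; unadjusted p under 0.05 for 3 lower and 0 higher; DESeq2 2 lower and 0 higher). In the sclerotome and cartilage list, 2 of 6 tested were lower and 1 higher. PAX3 is counted both in the dermomyotome and muscle list and in the somite list. MEOX2, CDH11 and FST are lower calls of the somite list. PAX3, which marks the dermomyotome and muscle precursors, gave 15.2 to 32.8 CPM (median 20.1) at course end, against 53, 87.6 and 113 CPM on Day3 (log2 fold change -1.94 ± 0.24, adjusted p = 1.05e-05). No course-end library reached the lowest Day3 library. MEOX2, a paralogue of MEOX1, had 0 counts in all 6 course-end libraries, against 2.66, 6.42 and 5.89 CPM on Day3. Allowing 3 counts over course end, MEOX2 was at least 47.1-fold lower there. CDH11, a mesenchymal cadherin, and FST, which binds activin, were 2.48-fold and 3.19-fold lower. FOXD2, a forkhead gene, was 6.90-fold lower. SOX9, the factor that opens the cartilage programme, was called higher, at 121 ± 23.0 CPM at course end against 13.3 ± 0.619 CPM on Day3 (SD, n = 6 and 3). PAX1, MYF5 and MYOD1, which define sclerotome and muscle, had 0 counts in both groups. PAX9 and TBX18 did not pass the filter, with 4 and 6 counts over course end and 45 and 54 over Day3.

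The list of ERK feedback genes and targets, which MEK inhibition acts on, moved in both directions: 4 of 19 tested were called higher and 3 lower, with a median log2 fold change of -0.15. DUSP6, a phosphatase that switches ERK off and is a sensitive target of the pathway, gave 1.39 to 8.53 CPM (median 4.51) at course end, against 6.83, 13.7 and 1.79 CPM on Day3, with overlap and no call (adjusted p = 0.519). SPRY4, a feedback inhibitor, had 17 counts over course end and 5 over Day3 and did not pass the filter. DUSP5, a nuclear ERK phosphatase, gave 99.7 to 206 CPM (median 164) at course end, against 13.1, 11.1 and 14.2 CPM on Day3 (log2 fold change 3.73 ± 0.24, adjusted p = 2.02e-09). SPRY1, another Sprouty inhibitor, gave 31.0 to 70.7 CPM (median 62.8) at course end, against 8.54, 5.09 and 6.27 CPM on Day3 (log2 fold change 3.16 ± 0.27). PHLDA1 and ETV4, an ETS factor, were 6.03-fold and 13.1-fold higher. None of these 4 genes overlapped between the groups. In the whole list 7 of 19 did not overlap, against 20.4% of all genes tested. SHISA2, which holds back FGF and Wnt receptors, and the FGF receptor partners FLRT2 and FLRT3 were 4.13-fold, 2.65-fold and 3.60-fold lower. The number called lower was 2 without Day3 replicate 1 and 5 without Day3 replicate 3.

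Among FGF ligands and receptors, 4 of 12 tested were called higher and 1 lower. FGF4, a ligand of the streak and tailbud, gave 9.76 to 18.8 CPM (median 13.1) at course end, against 0, 0.221 and 0.128 CPM on Day3. FGF17 gave 6.47 to 13.7 CPM (median 11.7) at course end, against 0, 0.443 and 2.56 CPM on Day3. FGF19, a low-level ligand, had 69 counts over course end and 0 over Day3, and was at least 14.5-fold higher. FGFR2 was lower at course end, at 51.6 ± 5.25 CPM against 123 ± 17.7 CPM on Day3 (SD, n = 6 and 3). FGFR1, the main receptor by count, had a log2 fold change of 0.26 ± 0.14 and was not called. FGF8 did not pass the filter, with 17 counts over course end and 68 over Day3.

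Of the Wnt targets, 6 of 18 tested were called higher and 0 lower (edgeR; the unadjusted p was under 0.05 for 10 higher and 0 lower, and DESeq2 called 8 higher and 0 lower), with a median log2 fold change of 0.65. LEF1, a nuclear effector and target of the pathway, gave 126 to 251 CPM (median 232) at course end, against 29.6, 49.3 and 48.5 CPM on Day3 (log2 fold change 2.36 ± 0.21, adjusted p = 2.30e-07). The other calls were TNFRSF19, WIF1, CDX1, CDX2 and T. Lists share members, so their calls are not separate evidence. T, CDX1 and CDX2 are also presomitic calls, as are WNT3A, WNT5A and RSPO3 of the Wnt ligands and receptors. DLL3 counts in the segment border, presomitic and Notch lists, and LFNG in the presomitic, Notch and somite lists. AXIN2, the feedback target most often used as a readout, gave 43.9 to 77.9 CPM (median 53.7) at course end, against 39.5, 38.3 and 39.8 CPM on Day3. The groups did not overlap, but the log2 fold change of 0.58 ± 0.20 was under the size limit. SP5, another direct target, was at 4.02 ± 2.53 CPM at course end and 0.683 ± 1.18 CPM on Day3 (SD, n = 6 and 3) and was not called (adjusted p = 0.0919). Of ligands and receptors, 4 of 21 were higher and 4 lower. WNT5A, a non-canonical ligand, was 6.09-fold higher, and WNT8A, a ligand of early mesoderm, gave 132 to 205 CPM (median 170.3) at course end, against 9.49, 46.9 and 59.8 CPM on Day3. The lower calls were WNT4, LRP5, FRZB and SFRP5, and only 1 to 3 of this list were called lower when any 1 library was left out.

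HOX genes give axial identity: 7 of 13 tested were called higher and 0 lower (edgeR; unadjusted p under 0.05 for 8 higher and 0 lower; DESeq2 7 higher and 0 lower). Over all genes tested, 4.44% were called higher. HOXD1 gave 16.3 to 27.1 CPM (median 23.3) at course end, against 0, 0 and 0.512 CPM on Day3 (log2 fold change 6.58 ± 0.56, adjusted p = 1.03e-07). HOXA5 was 5.86-fold higher. Other calls included HOXA3, HOXB7, HOXD3 and HOXD4, at means under 20 CPM in both groups. The count was 4 without Day3 replicate 1 and 4 with the time points summed. With the 630, 660 or 690 min libraries alone against Day3, it was 3, 2 and 2. Of the 39 HOX genes in the table, 26 did not pass the filter, of which 18 were at 0 in every course-end library and 15 at 0 in every Day3 library.

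In the retinoic acid list 2 of 13 tested were higher and 1 lower. STRA6, the retinol uptake receptor, was 3.86-fold higher. CRABP1, a retinoic acid binding protein, was 4.81-fold lower. In the hedgehog list 1 of 11 tested was higher and 3 lower. PTCH1, the hedgehog receptor and itself a target, gave 392 to 613 CPM (median 510.0) at course end, against 67.0, 91.8 and 102 CPM on Day3 (log2 fold change 2.59 ± 0.18). The coreceptors BOC, CDON and GAS1 were 5.54-fold, 3.29-fold and 3.40-fold lower, while GLI1, another direct target, was not called (log2 fold change 0.54 ± 0.56). EPHB2 and EPHB3, Eph receptors, were 3.03-fold and 2.59-fold lower, and the EPHB3 call ended without Day3 replicate 1.

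In the list of collagens and matrix genes, 6 of 24 tested were called lower and 0 higher (edgeR; unadjusted p under 0.05 for 11 lower and 2 higher; DESeq2 6 lower and 0 higher). COL4A1, a basement membrane collagen, gave 196 to 465 CPM (median 313) at course end, against 1118, 865 and 1341 CPM on Day3 (log2 fold change -1.72 ± 0.19, adjusted p = 2.37e-06). COL4A2, its partner chain, was 2.37-fold lower. TNC, a matrix protein of condensing mesenchyme, gave 24.6 to 37.2 CPM (median 31.3) at course end, against 136, 71.5 and 131 CPM on Day3. Neither COL4A1 nor TNC overlapped between the groups. In the whole list 9 of 24 did not overlap, against 20.4% of all genes tested. FBN2, a fibrillin, VCAN, a proteoglycan, and COL1A2, a chain of type I collagen, were also called, and the COL1A2 call (log2 fold change -1.03 ± 0.14) ended without 660 min replicate 2 or without Day3 replicate 3. COL3A1 and SPARC had log2 fold changes of 0.98 ± 0.23 and -0.22 ± 0.15 and were not called.

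IGFBP5, which binds insulin-like growth factors, gave 13.4 to 23.2 CPM (median 17.4) at course end, against 244, 608 and 996 CPM on Day3 (log2 fold change -5.03 ± 0.29, adjusted p = 4.90e-10). The Day3 libraries differed among themselves by several fold, and all lay far above course end. IGF2, a growth factor, gave 3.62 to 21.6 CPM (median 11.2) at course end, against 246, 37.8 and 36.9 CPM on Day3, where replicate 1 stood above the other 2 libraries. IGF1 had 3 counts over course end and 71 over Day3. IGFBP2 was 2.18-fold lower and IGFBP4 5.44-fold higher, so 4 of 15 tested in this list were lower and 1 higher. TGFBI, a secreted adhesion protein, gave 3.62 to 18.4 CPM (median 8.77) at course end, against 388, 111 and 144 CPM on Day3. COL14A1, a fibril-associated collagen, gave 5.32 to 10.6 CPM (median 6.78) at course end, against 46.7, 76.3 and 135 CPM on Day3. Other large falls at over 20 CPM on Day3 were VAT1L (23.4-fold lower), ITIH5 (19.2-fold), CPAMD8 (15.0-fold) and the proteoglycan gene SPOCK1 (11-fold).

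Further genes were higher at course end. LIPG, a secreted lipase, gave 239.7 to 274 CPM (median 254) at course end, against 7.40, 21.2 and 9.48 CPM on Day3 (log2 fold change 4.40 ± 0.27). NTS, the neurotensin precursor, gave 220.1 to 344 CPM (median 287) at course end, against 13.3, 15.5 and 21.0 CPM on Day3 (log2 fold change 4.17 ± 0.21, adjusted p = 1.54e-10). ACRC was 19.1-fold higher. APLNR, the apelin receptor of early mesoderm, gave 1822 to 2613 CPM (median 2452) at course end, against 396, 525 and 872 CPM on Day3, and CXCR4, a chemokine receptor, was 7.18-fold higher. ZIC2, a zinc finger factor, and EYA4, a transcriptional coactivator, were 5.38-fold and 6.37-fold higher, whereas EYA1 was not called (log2 fold change 0.25 ± 0.19). PCDH19, another protocadherin, was 13.1-fold higher.

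**Figure D3:**
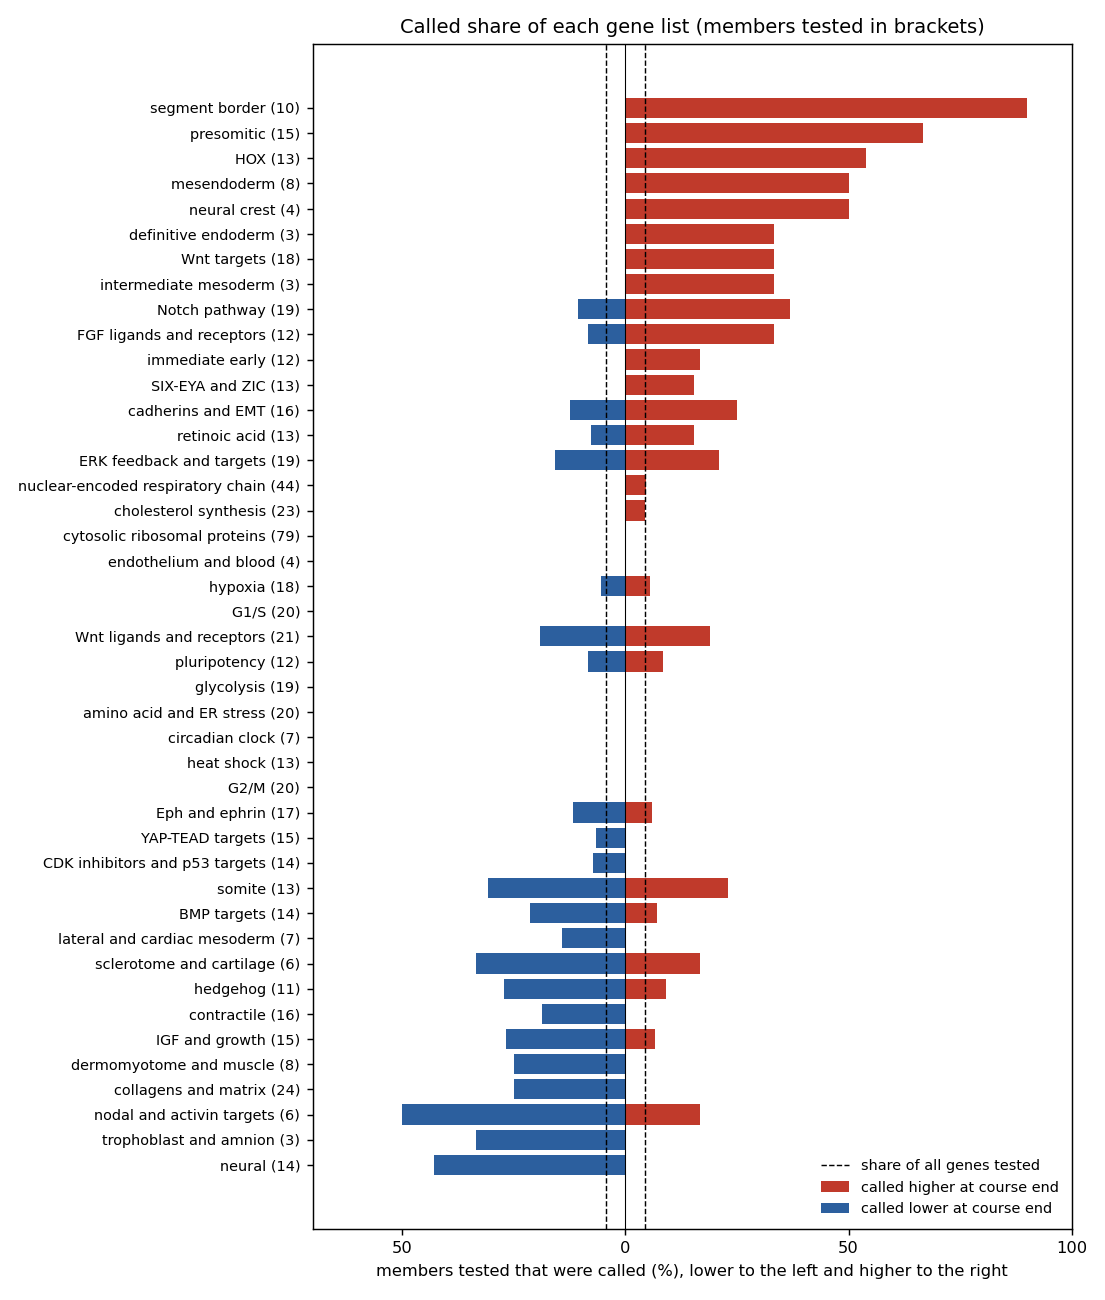
Share of the tested members of each of 43 gene lists that was called higher (red, to the right) or lower (blue, to the left) at course end than on Day3, with the number tested in brackets. Dashed lines are the shares over all genes tested, 4.44% higher and 4.34% lower. The segment border and presomitic lists reach farthest right, and the nodal and activin list, with 3 of 6, and the neural list, with 6 of 14 or 42.9%, reach farthest left.

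Markers of cell types outside the paraxial lineage were measured beside these groups, and their part in the results was not tested. Of 14 neural genes tested, 6 were lower at course end and 0 higher (edgeR; unadjusted p under 0.05 for 8 lower and 1 higher; DESeq2 6 lower and 0 higher): PAX6, SOX1, SOX2, MAP2, STMN2 and DCX. SOX1, a factor of neural progenitors, gave 0.925 to 7.04 CPM (median 2.52) at course end, against 3.80, 26.3 and 49.6 CPM on Day3, with overlap. STMN2, a neuronal tubulin regulator, gave 77.4 to 129 CPM (median 109) at course end, against 342, 355 and 162 CPM on Day3. The summed level of the 18 neural genes was 2574 to 3912 CPM at course end and 2906 to 3141 CPM on Day3. NES, an intermediate filament also made outside the nervous system, gave 1703 to 3163 CPM (median 2416) of this at course end, against 1419, 1580.3 and 2122 CPM on Day3. With Day3 replicate 2 left out, 4 neural genes were called. The near-identical actin genes ACTA1, ACTA2 and ACTG2 were called lower, but Day3 replicate 3 lay within the course-end range for each, all 3 calls ended without Day3 replicate 2, and reads of such copies may be split between them.

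Some defining markers of other lineages were at or near 0 in both groups, and others were not. SOX17 and FOXA2, of endoderm, had 1 and 3 counts over course end and 0 each over Day3. TAL1 and CDH5, of blood and endothelium, had 1 and 0 counts over course end and 0 and 6 over Day3. SOX10, of neural crest, had 8 counts over course end and 1 over Day3, HAND2 of lateral mesoderm 0 in both, and CGA of trophoblast 0 in both. HAND1, a lateral mesoderm and amnion factor, gave 4.66 to 16.0 CPM (median 11.4) at course end, against 50.9, 11.1 and 2.18 CPM on Day3, and was not called. POU5F1, the pluripotency factor, was at 89.6 ± 6.92 CPM at course end and 54.5 ± 19.9 CPM on Day3 (SD, n = 6 and 3), also without a call.

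Housekeeping programmes gave few calls. None of 20 G1/S genes, 20 G2/M genes, 13 heat shock genes or 7 clock genes was called by edgeR or by DESeq2. Over all genes tested 8.78% were called, so 0 calls in lists this short say little. At an unadjusted p under 0.05 in edgeR, G1/S had 1 higher and 6 lower, and G2/M 1 higher and 4 lower. Heat shock had 4 higher and 1 lower, and clock 1 higher and 2 lower. Summed G1/S levels were 2861 to 3050 CPM at course end, against 3240 to 3815 CPM on Day3. None of 79 ribosomal protein genes was called by edgeR and 1 was by DESeq2, with 27 at an unadjusted p under 0.05 (12 higher, 15 lower). Of 23 cholesterol synthesis genes 1 was called, but at an adjusted p under 0.05 and any size 8 were higher and 0 lower. Their summed level was 6349 to 7671 CPM at course end, against 4431 to 4896 CPM on Day3. Of 20 amino acid and ER stress genes 0 were called by edgeR, and 7 were higher and 0 lower by the same measure. TOP2A, a mitotic topoisomerase, gave 546 to 599 CPM (median 563) at course end, against 852, 901 and 855 CPM on Day3, without overlap but under the size limit (log2 fold change -0.56 ± 0.12).

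Because experiment and state coincide above, the change within each experiment was fitted too, on 18 libraries: course end (630 to 690 min, 6 libraries) over course start (30 to 90 min, 6 libraries), and Day3 over Day2 (3 libraries each). An offset that adds to every library of 1 experiment on the log scale drops out of the difference of these changes. The starting groups need not be the same state, so this difference mixes where the cultures ended with where they began. Within the course 571 genes were higher and 504 lower at its end, 8.48% of 12684 tested (4.5% higher, 3.97% lower). Within the days 1606 were higher and 606 lower on Day3, 17.4% (12.7% higher, 4.78% lower). The difference of the changes was called for 1400 genes, 11%: for 368 it was positive, or a greater rise or smaller fall in the course (2.9%), and for 1032 negative (8.14%). This split depends on scaling. With library totals alone there were 209 positive and 1561 negative, and the median over all genes moved to -0.34, against -0.12 with TMM; DESeq2 gave 594 and 1009. Scaling by library totals also gave 2255 higher and 350 lower within the days.

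PCDH8 had a log2 change of 6.80 ± 0.25 within the course and -0.07 ± 0.30 within the days, a difference of 6.86 ± 0.39 (SE, adjusted p = 7.56e-12). It stood at 17.4 ± 5.52 CPM at course start and 30.7 ± 13.6 CPM on Day2 (SD, n = 6 and 3). CER1 likewise changed by 7.67 ± 0.36 within the course and -0.33 ± 0.73 within the days. For MESP2 and RIPPLY2 no difference is given: both daily groups held 0 to 2 counts, so a fitted value would depend on the prior count. EFNB2 changed by 2.62 ± 0.11 within the course and -0.04 ± 0.15 within the days, NRARP by 2.86 ± 0.20 and -0.67 ± 0.29, and PTCH1 by 2.03 ± 0.11 and 0.07 ± 0.16, in the same order. CITED2, a coregulator of transcription, changed by 2.45 ± 0.12 within the course and 0.40 ± 0.16 within the days. All 6 genes were called higher within the course, and none of the 6 was called within the days. Apart from CER1, a fixed gene, they were named for a small adjusted p of the positive difference itself, so this pattern is not a separate result. NTS was named in the same way and had another pattern, given below.

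NTS and LIPG were called lower within the days and were not called within the course. NTS changed by -0.66 ± 0.11 within the course and -3.72 ± 0.18 within the days (difference 3.07 ± 0.21), and LIPG by 0.02 ± 0.16 within the course and -2.64 ± 0.27 within the days. T, RSPO3 and TBX6 fell in both experiments: T changed by -4.27 ± 0.22 within the course and -6.41 ± 0.39 within the days, RSPO3 by -3.00 ± 0.18 and -4.44 ± 0.29, and TBX6 by -2.55 ± 0.31 and -4.87 ± 0.63. T stood at 111 ± 19.8 CPM at course start and 55.8 ± 19.8 CPM on Day2 (SD, n = 6 and 3). All 3 had a called positive difference, a smaller fall in the course.

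The 6 named genes with the smallest adjusted p for a negative difference were all called higher within the days, and of these CYP1B1 alone was also called within the course. These genes were named for that difference and for a call between course end and Day3, so the pattern is not a separate result. IGFBP5 changed by 0.29 ± 0.24 within the course and 4.16 ± 0.32 within the days, a difference of -3.87 ± 0.39 (SE, adjusted p = 2.54e-07). COL1A2 changed by 0.85 ± 0.12 within the course and 3.04 ± 0.18 within the days, and COL4A2 by 0.55 ± 0.14 and 2.66 ± 0.22. LTBP1, which stores latent TGF-beta in the matrix, changed by 0.14 ± 0.13 within the course and 2.48 ± 0.19 within the days. CYP1B1, a cytochrome P450, changed by 1.46 ± 0.25 within the course and 5.02 ± 0.42 within the days, and NOTCH3 by -0.23 ± 0.18 and 2.27 ± 0.27. Of 24 matrix genes 9 had a called negative difference and 0 a positive one. Over all genes tested 8.14% were negative and 2.9% positive, a split that depended on scaling.

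TCF15, MEOX1 and PAX3 were called higher in both experiments, and DUSP6 and SPRY4 lower in both. TCF15 rose by 6.15 ± 0.28 within the course and 7.06 ± 0.45 within the days, a difference of -0.91 ± 0.58 that was not called. MEOX1 rose by 7.29 ± 0.19 within the course and 10.29 ± 0.41 within the days, and its difference of -3.00 ± 0.81 was called, from Day2 libraries that held 0 or 1 count. PAX3 rose by 2.30 ± 0.28 within the course and 1.90 ± 0.34 within the days, without a called difference (0.40 ± 0.43). Its level was 4.40 ± 2.00 CPM at course start and 19.1 ± 3.96 CPM on Day2 (SD, n = 6 and 3). DUSP6 changed by -5.63 ± 0.59 within the course and -4.31 ± 0.76 within the days, and SPRY4 by -6.82 ± 0.51 and -8.05 ± 0.77. DUSP5 and SPRY1 were called higher within the course and lower within the days: DUSP5 changed by 1.51 ± 0.20 within the course and -1.14 ± 0.32 within the days, and SPRY1 by 2.11 ± 0.29 and -1.45 ± 0.44.

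**Figure D4:**
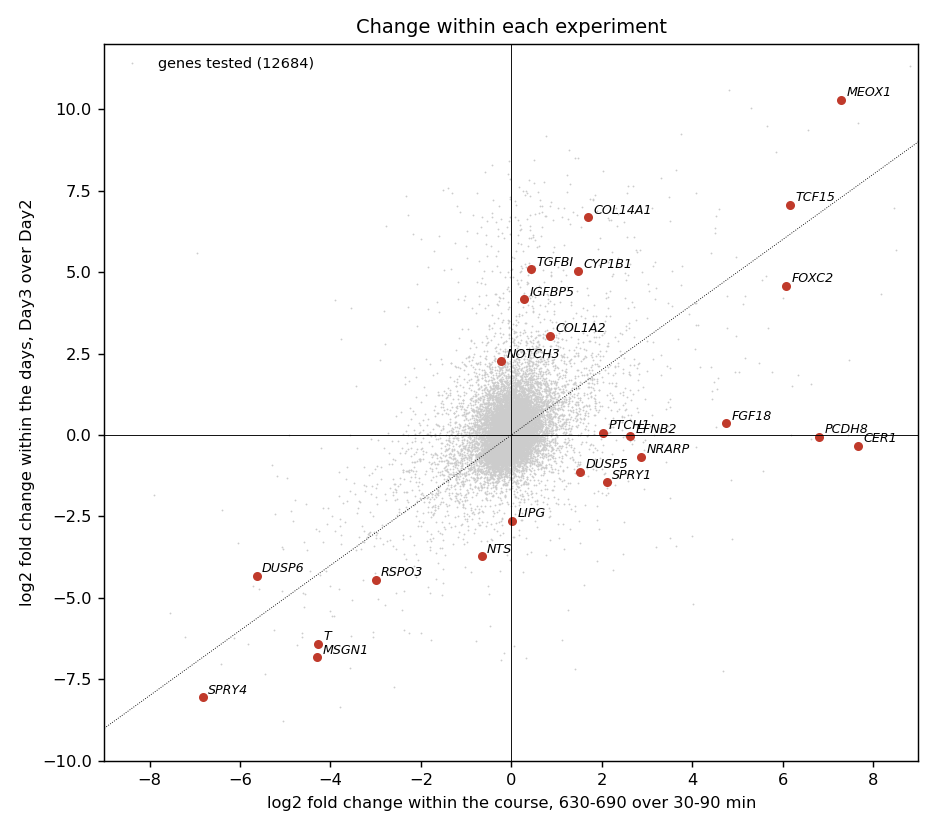
Log2 fold change within the course (630 to 690 over 30 to 90 min, across) against that within the days (Day3 over Day2, up the page) for 12684 genes, with named genes in red and the dotted line marking equal change. PCDH8, CER1, EFNB2, NRARP and PTCH1 lie to the right near a change of 0 within the days. IGFBP5, TGFBI and COL1A2 lie above the line, and DUSP6, SPRY4 and T fell in both experiments.

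The course shows when these levels were reached. PCDH8 averaged 13.6 CPM at 30 min, 198 CPM at 300 min, 1069 CPM at 510 min and 2049 CPM at 690 min (2 libraries a time point). CER1 was under 1 CPM up to 270 min and averaged 33.7 CPM at 480 min and 66.8 CPM at 600 min. RIPPLY2 averaged 138 CPM at 450 min, 142 CPM at 570 min and 52.6 CPM at 690 min, so the course-end level of RIPPLY2 was below its highest. MESP2 was highest at 540 min, at 49.0 CPM, and averaged 28.0 CPM at 690 min. HES7 averaged 17.7 CPM at 30 min and 1.93 CPM at 690 min. DUSP6 averaged 417 CPM at 30 min, 37.8 CPM at 90 min and 13.9 CPM at 120 min, and SPRY4 averaged 129, 29.6 and 3.97 CPM at the same times. DUSP5 averaged 33.3 CPM at 120 min, 317 CPM at 360 min and 132 CPM at 690 min. MEOX1 averaged 2.01 CPM at 30 min and 338 CPM at 630 min, above the Day3 mean of 182 CPM, which it passed between 480 and 510 min.

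**Figure D5:**
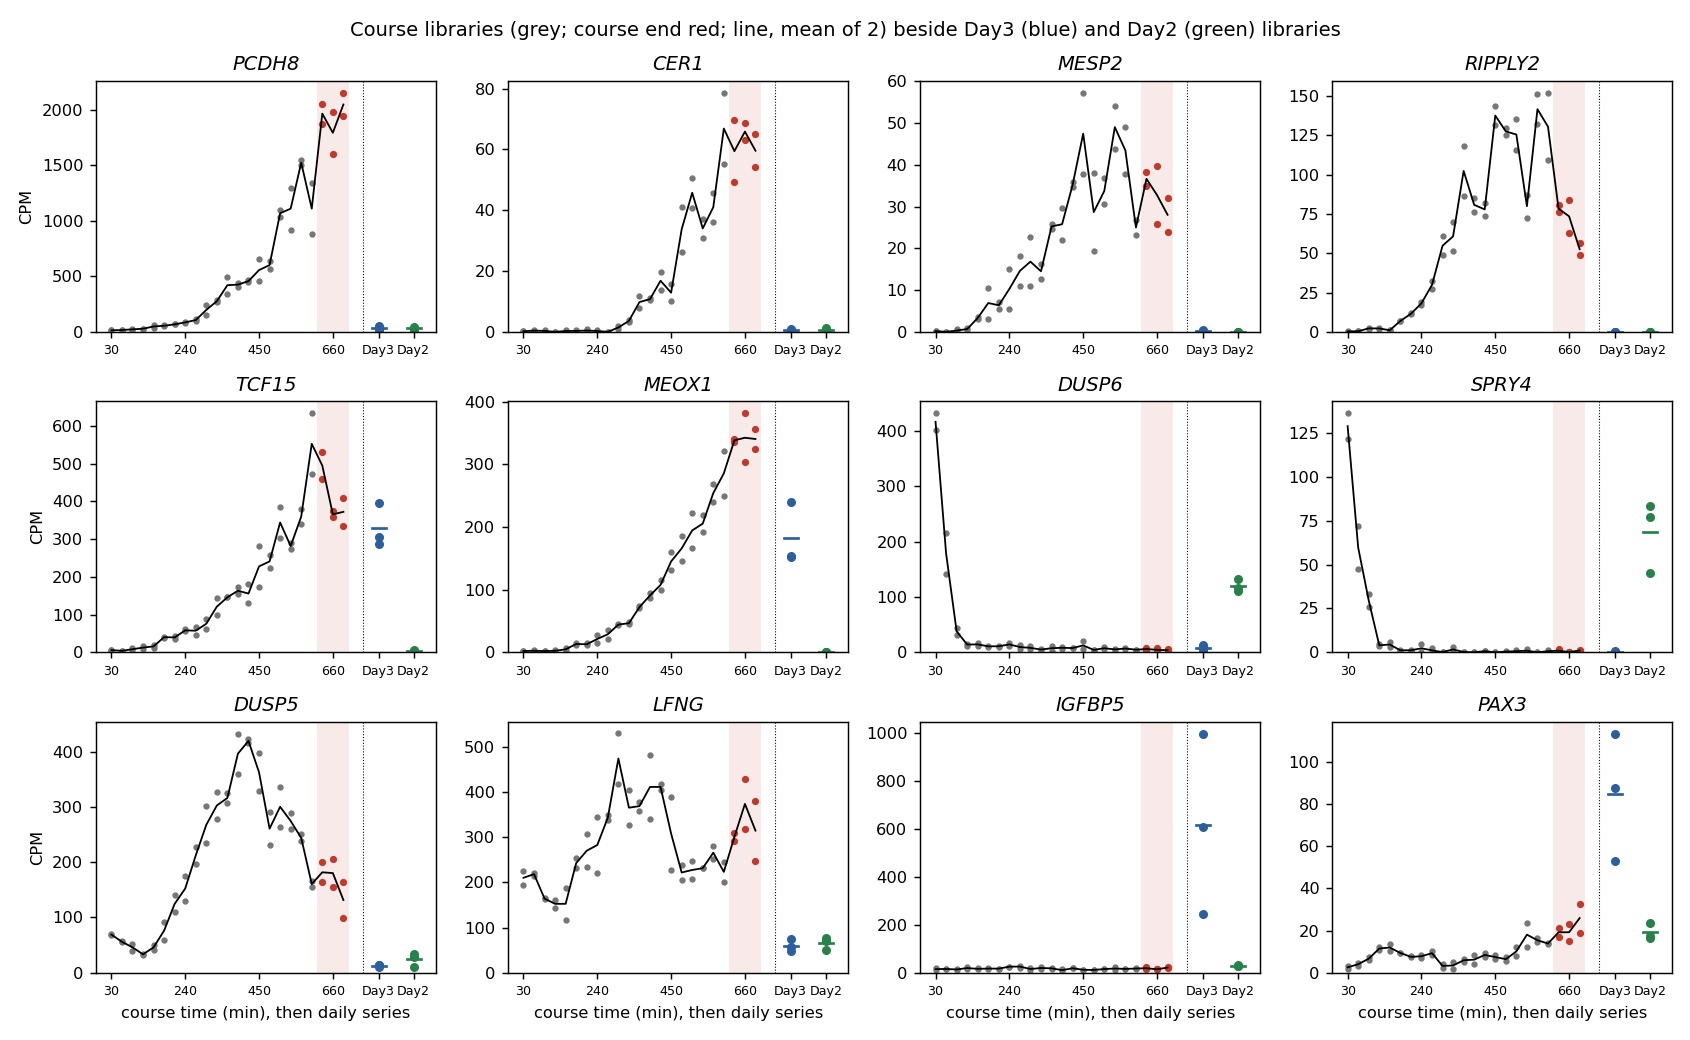
CPM of 12 genes over the course, 30 to 690 min (points, libraries; line, mean of 2), with course-end libraries in red in the shaded band, and beside them Day3 (blue) and Day2 (green) libraries with their means. PCDH8, CER1 and MEOX1 are near their highest at course end, RIPPLY2 and MESP2 are past theirs, DUSP6 and SPRY4 are low from 120 min on, and the IGFBP5 mean stays under 30 CPM throughout the course, against 244 to 996 CPM in the Day3 libraries.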

How the data were processed

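Total RNA of H1 cells lysed in the culture plate was made into LM-seq libraries, per the labels' protocols. The authors deposited expected counts per gene (estimated counts, not whole) and TPM, which scale counts by transcript length and library total. The submitters' processing notes list the aligner Bowtie 0.12.2 with 2 builds, hg19 and mm8. No label or header says what mm8 was used for, and the counting program and annotation were not given in the sources used here. Libraries were grouped by label.

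After rounding to integers, the expected counts went into edgeR 4.0.16 (filterByExpr, TMM, quasi-likelihood test) in R 4.3.3, with Benjamini-Hochberg adjustment over all genes tested. Calls needed an adjusted p under 0.05 and a log2 fold change of 1 or more in size. DESeq2 1.42.0 and limma 3.58.1 on log2(TPM + 1) and log2(TPM + 0.1) were alternatives. The change within each experiment and the difference of the changes came from 1 fit of 18 libraries. Where all libraries of a group held 0 counts, 3 counts over the group set a lower bound of the fold; intervals and bounds cover counting error only. No library pair of a group agreed within sampling noise (chi-square per degree of freedom at least 5.98). The code was tested on simulated data.

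Named genes were the 8 largest rises and 8 largest falls with a mean of at least 20 CPM in the higher group and no overlap, up to 3 called members of each list (with up to 2 uncalled where fewer were called), 21 fixed genes and, for the difference of the changes, the 6 with the smallest adjusted p in each direction. Other genes named were chosen after their values were seen. The libraries compared, the gene lists and the naming rule were chosen with earlier results of these data known. Promoter windows came from RefSeq on GRCh38.p14, another build than hg19, and no coordinates of the deposited files were used; of several annotated starts the most upstream was taken. A few genes that the rule selects are not reported here.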

Additional observations from a re-analysis of the deposited data

Results flagged for a closer look

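Of 147 gene and library series tested for an outlying course-end library, 9 had one, and chance gives about 1 in 20. The 630 min replicate 1 library was high for IGFBP4 (147 CPM, others 89.0 to 106 CPM) and SPOCK1 (7.24 CPM, others at most 1.91 CPM) and low for LIN28A (623 CPM, others 762 to 841 CPM). The 660 min replicate 1 library was high for ADM (10.4 CPM, others at most 5.28 CPM) and GATA6 (25.8 CPM, others at most 12.8 CPM), and its total of 8.96 M counts stood above the others at 2.84 to 4.32 M. SOX1 was high at 7.04 CPM in 660 min replicate 2, VTCN1 high at 1.62 CPM in 630 min replicate 2, and SNAI2 low at 373 CPM in 690 min replicate 2.

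The change within the course differed from that within the days, by edgeR's test of the difference, for these genes in log2 units. They were chosen for a small adjusted p of this same difference, so the values describe the choice and are not a further test. It was positive for PCDH8 (6.86), NRARP (3.53), NTS (3.07), EFNB2 (2.66), CITED2 (2.05) and PTCH1 (1.97). It was negative for IGFBP5 (-3.87), CYP1B1 (-3.55), NOTCH3 (-2.50), LTBP1 (-2.34), COL1A2 (-2.19) and COL4A2 (-2.12). A part of the starting states in these differences was not tested.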

How the results depend on the processing

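Other scalings, filters, a fit of all 58 libraries and summed time points kept the number of genes called between course end and Day3 within 1.5 times of 1060. Summed time points gave 896. With fewer libraries, 630 min alone gave 322 lower, 660 min alone 561 called (323 higher, 238 lower) and 690 min alone 453 (272 higher, 181 lower). Leaving out 1 library gave 774 to 1320 called (415 to 756 higher, 359 to 564 lower), lowest without Day3 replicate 2 and highest without Day3 replicate 3.

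Within the course, leaving out 1 library gave 973 to 1162 calls (526 to 603 higher, 436 to 559 lower). Within the days it gave 1556 to 2644 (1129 to 1936 higher, 427 to 858 lower). For the difference of the changes it gave 958 to 1882 (312 to 632 positive, 622 to 1428 negative), with 632 without Day3 replicate 2 and 622 without Day3 replicate 3. DESeq2 gave 594 positive differences. Library totals alone gave 350 lower within the days, and 209 positive and 1561 negative differences. limma on log2(TPM + 1) gave 2417 higher and 375 lower within the days, and 214 positive and 1633 negative differences. Of the calls within the days 72.6% were higher, against 86.6% under either of these scalings; of the differences 26.3% were positive, against 11.8% (library totals), 11.6% (limma) and 37.1% (DESeq2). The difference for KLF4 was -1.52 without Day2 replicate 3, and up to 5.04 when another library was left out. The cause was not tested.

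With the replicate number as a block, 1284 genes were called (710 higher, 574 lower); within the course 1102, within the days 2354 and for the difference 1547. Same-numbered libraries share only a number: in 12 pairs, r of their deviations from group means was -0.0296 to 0.0685, and 0 pairs were over 0.1.

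The main limits are the small number of Day3 libraries, whose choice set the range of calls between course end and Day3, 2 experiments that coincide with the groups, and unequal starting states. Depth limits genes with few counts.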

Other observations

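DLK1, a paternally expressed inhibitor of Notch and of fat cell differentiation, was chosen after its values were seen. It was 98.2-fold lower at course end (edgeR, adjusted p = 1.93e-05), with 0 to 3.10 CPM in the 6 course-end libraries and 2.66 to 139 CPM in the 3 Day3 libraries. A Day3 library lay within the course-end range, so DLK1 is not among the non-overlapping genes, and its difference of the changes was not called (log2 -3.09 ± 1.77, SE).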
